A study of Mus musculus with 37 samples.

Results

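Genes for 10 transcription factors of the natural killer (NK) lineage were followed across every library of the series: Eomes, Tbx21, Zeb2, Prdm1, Nfil3, Id2, Gata3, Tox, Tcf7 and Mef2c. They were chosen by name, as the pair of T-box factors and the factors of NK cell commitment and maturation. The choice was made with earlier results of these data known, so it was not blind to them. They are 10 of the 53700 genes counted. All 10 had enough reads to be tested in every comparison. The RNA came from uterine NK (uNK) cells of pregnant C57BL6 mice at gestation day 9.5 to 10.5. Live single CD45+ NKp46+ cells without CD3, CD4, CD8 or high CD11b were sorted by the inhibitory receptors NKG2A and Ly49C/I, which educate NK cells by binding self MHC class I. WT mice gave 9 libraries of uneducated cells (Ly49C/I- NKG2A-), 9 of NKG2A+ cells (Ly49C/I-) and 6 of Ly49C/I+ cells (NKG2A-). Mice whose genotype the labels give as NKG2A KO, on the same strain, gave 8 libraries of uneducated cells and 5 of Ly49C/I+ cells. Cells with both receptors were not collected. In KO mice, cells that would have carried NKG2A can fall into the NKG2A- sorts, from which WT sorting removed them. This difference in the cells sorted and an effect of genotype cannot be told apart. Nothing in the labels says that libraries of a group came from separate mice, so p-values measure the spread between these libraries, which may in part be technical.

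T-bet (the product of Tbx21) and Eomes are related T-box factors that bind similar DNA elements. Both keep NK cell identity and cytotoxic genes active, and in the mouse T-bet is known for the last steps of maturation, while Eomes sets conventional NK cells apart from ILC1. Id2, an inhibitor of E proteins, and Nfil3 act early in the commitment of innate lymphoid cells, as do Tox, Gata3 and TCF1 (the product of Tcf7). Zeb2, a repressor, acts with T-bet in terminal maturation, and Blimp1 (the product of Prdm1) also belongs to that step. Mef2c is a MADS-box factor best known from muscle and B cells.

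Between 13287163 and 18875033 reads per library were counted on genes (median 17273311), and between 13982 and 17859 genes had a read. The fewest genes, 13982 to 14197, were detected in library 9 of the NKG2A+ group and in the libraries numbered 5 of WT uneducated, WT Ly49C/I+ and KO Ly49C/I+ cells, against 14989 or more in the other 33. Reads from amplified cDNA are not independent molecules. The sort was visible in the receptor genes. Klrc1, which encodes NKG2A, lay between 494 and 759.8 CPM (reads of a gene scaled to an equal library size) in NKG2A+ libraries and at 13.8 CPM or less in all others, and since KO cells were only sorted as NKG2A-, this gene does not check their genotype. Klra9, which encodes Ly49I, lay between 464 and 1136 CPM in both Ly49C/I+ groups and at 123 CPM or less elsewhere. Of the T cell markers, Cd4 was at 0 in WT Ly49C/I+ and both KO groups, and the summed level of all 8, mostly Cd3g, was 56.1 to 214 CPM. The 7 myeloid markers summed to between 0.931 and 370.2 CPM, with the highest library among WT Ly49C/I+ cells, and the 5 ILC2 and ILC3 markers to at most 7.83 CPM. The stromal and endothelial list summed to 219 to 352 CPM in WT uneducated cells, against 122 to 201 CPM in NKG2A+ and 146 to 218 CPM in Ly49C/I+ cells, almost all of it Pecam1. In the trophoblast and erythroid list, haemoglobin reads made up nearly all of the sum, with a median of 483 CPM in WT uneducated, 1189 CPM in NKG2A+, 948 CPM in WT Ly49C/I+, 491 CPM in KO uneducated and 649 CPM in KO Ly49C/I+ cells. Their part in the results was not tested.

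The genes lie on 7 chromosomes, and their positions follow GENCODE on GRCm38. Eomes spans chr9:118478212-118486132 on the plus strand and Tbx21 spans chr11:97098071-97115331 on the minus strand. Mef2c spans chr13:83504034-83667080 on the plus strand and Zeb2 spans chr2:44983632-45117395 on the minus strand. Exons of another annotated gene covered at most 5.83% of the exon bases of any of the 10, which was the value for Gata3, and none of those of Tbx21, Prdm1, Nfil3, Id2, Tcf7 and Mef2c. Zeb2 overlaps Zeb2os and Eomes overlaps Gm33460, each on the opposite strand (3.30% and 2.84% of exon bases shared in all), so that without strand those reads cannot be told apart.

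RefSeq on GRCm38.p6 gave the 250 bases before 15 start sites of 9 of the 10 genes. The windows of the T-box pair, and the Mef2c window with a T-box match, are shown because the results below turn on these genes, and capitals mark matches to a searched motif. The Tbx21 window is chr11:97115332-97115581 on the minus strand, the Eomes window is chr9:118477939-118478188 on the plus strand, and the Mef2c window is chr13:83523406-83523655 on the plus strand.
Tbx21: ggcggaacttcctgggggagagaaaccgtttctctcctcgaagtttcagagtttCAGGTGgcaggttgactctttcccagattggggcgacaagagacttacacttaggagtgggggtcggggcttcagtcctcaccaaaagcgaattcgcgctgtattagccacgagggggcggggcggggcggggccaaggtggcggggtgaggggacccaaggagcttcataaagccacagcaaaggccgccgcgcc
Eomes: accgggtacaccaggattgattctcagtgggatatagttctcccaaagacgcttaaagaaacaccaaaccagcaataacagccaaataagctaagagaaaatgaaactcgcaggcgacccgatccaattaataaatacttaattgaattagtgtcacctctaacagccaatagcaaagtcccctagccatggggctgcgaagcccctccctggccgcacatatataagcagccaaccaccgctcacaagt
Mef2c: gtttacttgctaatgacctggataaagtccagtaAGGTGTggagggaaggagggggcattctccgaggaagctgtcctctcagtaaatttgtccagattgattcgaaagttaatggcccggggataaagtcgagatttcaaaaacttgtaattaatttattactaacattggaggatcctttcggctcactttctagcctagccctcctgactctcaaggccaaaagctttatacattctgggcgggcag
Each window was searched on both strands for the T-box letters AGGTGT, the E-box letters CACCTG bound by ZEB factors, the GATA letters AGATAA, the TCF/LEF letters CTTTGA and the NFIL3 letters TTACGTAA. The reverse of the E-box, CAGGTG, shares the letters AGGTG with the T-box motif, so a site could count for both. The E-box letters stood in the Tbx21 window, 196 to 191 bases before the start, and in the Prdm1 window. The T-box letters stood in the Mef2c window, 216 to 211 bases before the start. Of 32851 windows of the same length over 27025 genes, 17.2% held the E-box letters and 11.8% the T-box letters. The other 3 motifs, found in 9.99%, 13.8% and 0.113% of all windows, were in none of the 15.

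Per kb of exon, the 10 genes covered a wide range of levels. Id2 had the highest mean (425 CPM per kb ± 59.5, SD over 37 libraries), followed by Tbx21 (379.6 ± 88.1), Nfil3 (214 ± 27.5), Eomes (92.4 ± 14.0) and Tcf7 (78.3 ± 23.4). Then came Gata3 (12.6 ± 3.20), Prdm1 (8.85 ± 2.76), Tox (6.25 ± 2.21), Mef2c (3.52 ± 1.59) and Zeb2 (2.08 ± 1.02). Some neighbours in this order were not apart: Id2 was above Tbx21 in 25 of 37 libraries, Eomes above Tcf7 in 25, and Mef2c above Zeb2 in 27. Nfil3 was above Eomes, and Tcf7 above Gata3, in all 37. At the top of the list, Id2 exceeded Tbx21 in 8 of 9 WT uneducated and 8 of 8 KO uneducated libraries. It did so in 5 of 9 NKG2A+, 3 of 5 KO Ly49C/I+ and 1 of 6 WT Ly49C/I+ libraries. By group mean, Tbx21 stood first only in WT Ly49C/I+ cells. Lengths are those of all annotated exons of a gene, 19942 bases for Zeb2 and 2488 for Tbx21, so genes with many rarely used exons are placed low. The lowest count of any member in any library was 39 reads, for Zeb2 in WT uneducated library 5.

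**Figure D1:**
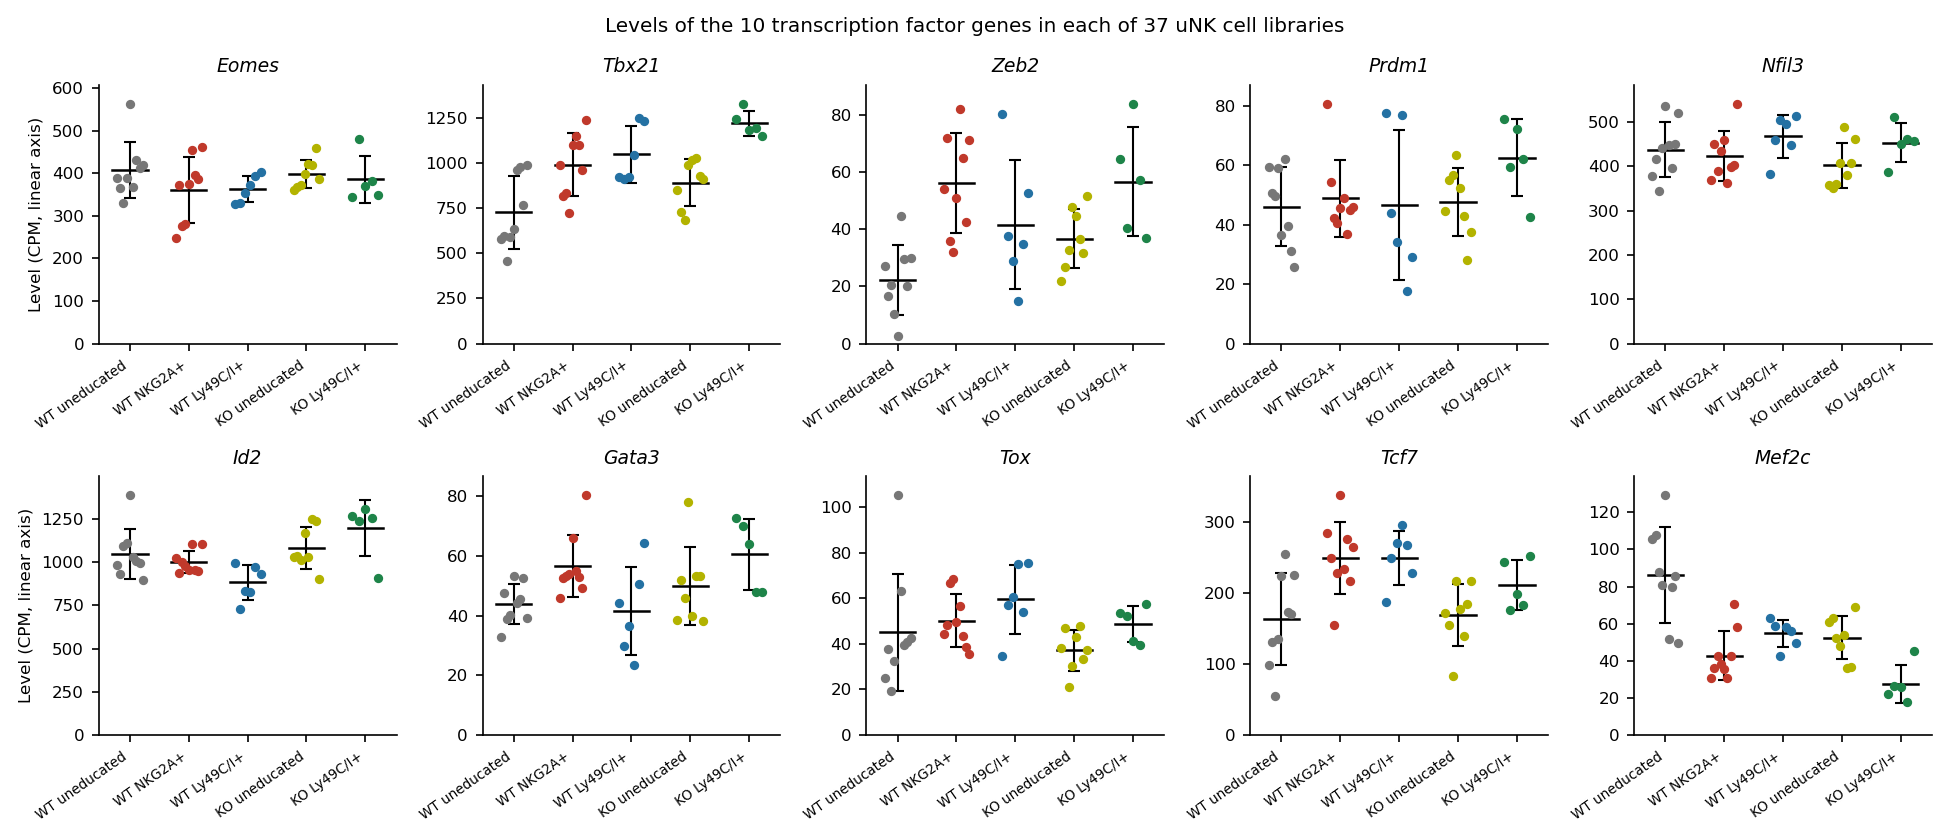
Level of each gene in CPM (linear y axis) in the 5 groups on the x axis. Each point is a library, the horizontal line is the group mean and the bar is 1 SD (n = 9, 9, 6, 8 and 5 from left to right). Tbx21 and Zeb2 had higher and Mef2c lower means in NKG2A+ than in WT uneducated libraries, with overlapping ranges for each. The ranges of Eomes and Nfil3 overlapped in all groups.

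Levels below are CPM scaled by TMM over all 37 libraries, and fold changes come from edgeR's quasi-likelihood test with Benjamini-Hochberg adjustment over all genes tested. In NKG2A+ against uneducated WT cells, 4 of the 10 factors passed an adjusted p of 0.05, where 15.0% of the 9339 genes tested did. Tbx21, Zeb2 and Gata3 were higher and Mef2c was lower. In Ly49C/I+ against uneducated WT cells, 2 of 10 passed, with Tbx21 higher and Mef2c lower, against 9.30% of 9292 genes. In Ly49C/I+ against uneducated cells of KO mice the same 2 genes passed in the same directions, against 16.3% of 9299 genes. The first pair of comparisons share the 9 WT uneducated libraries, whereas the KO comparison shares no library with them. The median absolute log2 fold change of the 10 genes was 0.27, 0.32 and 0.34 in these 3 comparisons, beside 0.21, 0.23 and 0.24 over all genes tested. In bulk RNA, a change in the share of cells that make a transcript and a change in the RNA made per cell cannot be told apart.

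Tbx21 was the factor that was higher in all 3 comparisons of educated with uneducated cells. In WT uneducated libraries it ranged from 457 to 986 CPM (median 635), in NKG2A+ libraries from 722 to 1237 CPM (median 989), and in WT Ly49C/I+ libraries from 909.7 to 1249 CPM (median 983). All 15 educated WT libraries were above the uneducated median, although the ranges overlapped, because 4 uneducated libraries reached 765 CPM or more. These were the libraries numbered 6 to 9, while those numbered 1 to 5 lay between 457 and 635 CPM. The labels do not say whether the numbers mark a batch, and this split within the group was not tested. Same-numbered libraries of different groups shared some variation, and pairing them in the fit was an alternative. The log2 fold change was 0.45 (SE 0.14, adjusted p = 0.0395) in NKG2A+ and 0.52 (SE 0.16, adjusted p = 0.0472) in Ly49C/I+ cells. In KO mice, Tbx21 was 686 to 1025 CPM in the 8 uneducated libraries and 1243, 1327, 1183, 1195 and 1148 CPM in the 5 Ly49C/I+ libraries, so every Ly49C/I+ library was above every uneducated one. Here the log2 fold change was 0.44 (SE 0.09, adjusted p = 0.00511). The KO call was kept without any 1 library, with an adjusted p of at most 0.0153. The WT calls were close to the threshold: in NKG2A+ cells the call was lost on leaving out any 1 of uneducated libraries 1 to 5 and 8 or NKG2A+ libraries 1 and 5 to 9 (adjusted p up to 0.0771), and in Ly49C/I+ cells on leaving out any 1 of uneducated libraries 1 to 4 and 8 or any 1 of the 6 Ly49C/I+ libraries (up to 0.12).

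Eomes did not pass the test in any comparison. Its range was 331 to 563 CPM in WT uneducated, 248 to 462 CPM in NKG2A+ and 328 to 402 CPM in WT Ly49C/I+ libraries. In KO mice it was 361 to 459 CPM in uneducated libraries and 345, 479.8, 370.1, 383 and 349 CPM in Ly49C/I+ libraries. All 5 groups overlapped. The log2 fold changes of educated over uneducated cells were -0.17 (SE 0.12, adjusted p = 0.375), -0.18 (SE 0.10, adjusted p = 0.307) and -0.07 (SE 0.09, adjusted p = 0.654).

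The balance of the pair was taken as the log2 ratio of Eomes to Tbx21 counts within each library, which does not depend on library size. Per kb of exon, Eomes was 0.23 to 0.531 times Tbx21 in WT uneducated libraries (median 0.369), 0.15 to 0.273 times in NKG2A+ (median 0.223) and 0.188 to 0.229 times in WT Ly49C/I+ libraries (median 0.213). All 6 Ly49C/I+ libraries lay below all 9 uneducated ones, as did 5 of the 9 NKG2A+ libraries. Within the WT uneducated group, libraries 1 to 5 lay at 0.369 to 0.531 times and libraries 6 to 9 at 0.23 to 0.322 times. The ratio fell by 0.67 on the log2 scale in NKG2A+ cells (a mean of -1.47 ± 0.24 against -0.80 ± 0.40, SD, exact permutation adjusted p = 0.00233 over 6 comparisons). In WT Ly49C/I+ cells it fell by 0.72 (-1.52 ± 0.10 against -0.80 ± 0.40, SD, exact permutation adjusted p = 0.0028). Between NKG2A+ and Ly49C/I+ cells it differed by 0.05 (exact permutation adjusted p = 0.651).

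In KO mice the balance showed the same order of the sorts. Eomes was 0.241 to 0.325 times Tbx21 per kb in uneducated libraries and 0.166 to 0.217 times in Ly49C/I+ libraries, with no overlap. The log2 ratio fell by 0.52 (-1.67 ± 0.14 in 5 libraries against -1.15 ± 0.17 in 8, SD, exact permutation adjusted p = 0.00233), and all 5 Ly49C/I+ libraries were below the lowest uneducated one. KO uneducated cells were 0.35 below WT uneducated cells (exact permutation p = 0.0363, adjusted p = 0.0544), and KO Ly49C/I+ cells 0.15 below WT Ly49C/I+ cells (exact permutation p = 0.0671, adjusted p = 0.0805). Neither passed. The first of these passed when uneducated library 3 of KO mice or library 6, 7 or 9 of WT mice was left out (adjusted p from 0.014), and the second without KO library 5 or WT library 7 (from 0.0214). The 2 genotypes differed by 0.20 on the log2 scale in how far the ratio fell from uneducated to Ly49C/I+ cells (exact permutation p = 0.314, with genotypes permuted within each sort).

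**Figure D2:**
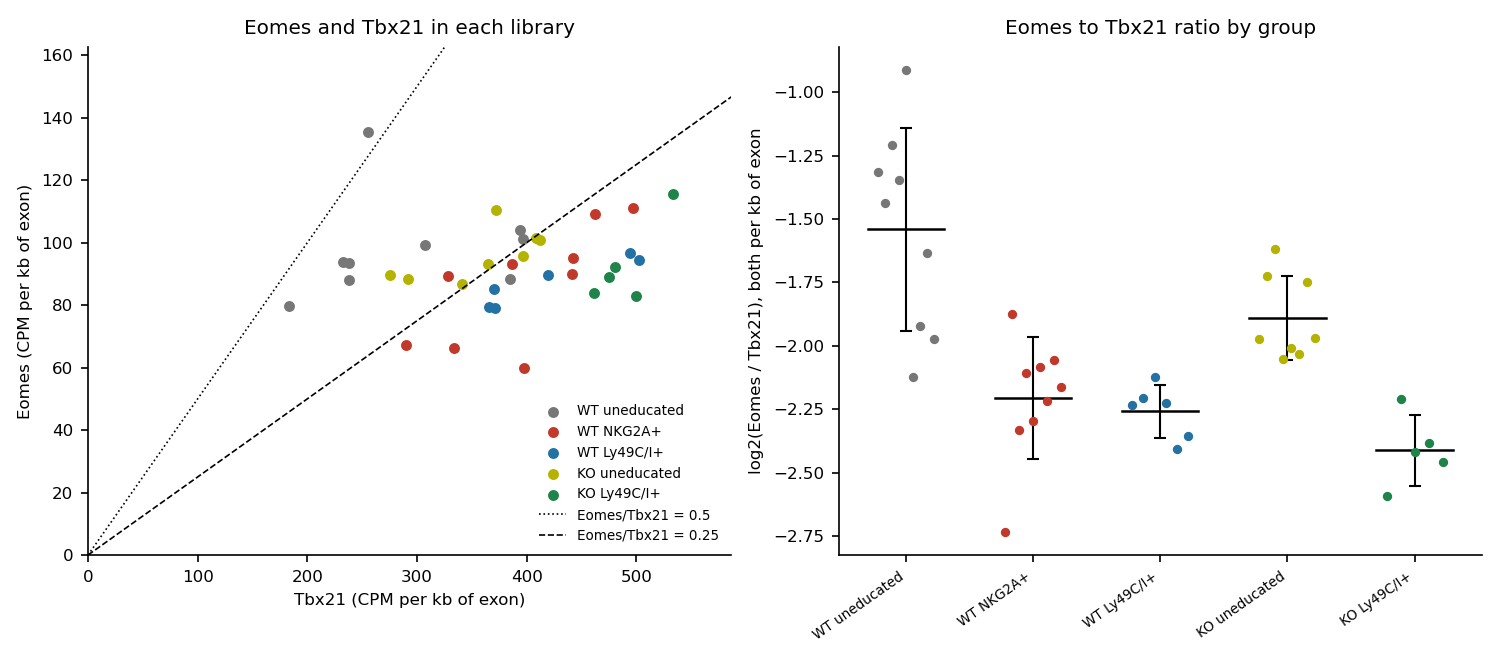
Left, Eomes against Tbx21 in CPM per kb of exon (linear axes), with 1 point per library, coloured by group, and lines where Eomes is 0.5 or 0.25 times Tbx21. Right, log2 of the ratio by group, with the mean and 1 SD. The Eomes ranges of the groups overlap, and the means of the log2 ratio are lower in the educated groups than in the uneducated group of the same genotype.

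Zeb2, the partner of T-bet in terminal maturation, had the largest fold change of the 10 in NKG2A+ cells. It ranged from 2.62 to 44.6 CPM in uneducated libraries (median 20.5) and from 32.1 to 82.2 CPM in NKG2A+ libraries (median 54.2), and all 9 NKG2A+ libraries were above the uneducated median. The log2 fold change was 1.33 (SE 0.33, adjusted p = 0.00783), and it remained between 1.18 and 1.52 on leaving out any 1 library, with an adjusted p of at most 0.0179. WT Ly49C/I+ libraries spread from 15.0 to 80.5 CPM (median 36.3) and the difference from uneducated cells did not pass (log2 fold change 0.88, SE 0.42, adjusted p = 0.196). With same-numbered libraries paired in the fit, this difference was 1.38 and passed (edgeR adjusted p = 0.015). KO libraries gave 22.0 to 51.6 CPM in uneducated cells and 64.7, 40.6, 84.1, 57.5 and 36.9 CPM in Ly49C/I+ cells. All 5 of the latter were above the uneducated median, and the log2 fold change of 0.61 (SE 0.22) had an adjusted p of 0.0715, which passed without Ly49C/I+ library 5 and without library 8 (0.0409 for the latter). NKG2A+ and WT Ly49C/I+ cells were not shown to differ in Zeb2 (log2 fold change 0.44, SE 0.28, adjusted p = 0.449).

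Mef2c was the factor that was lower in educated cells of both genotypes. It ranged from 49.5 to 129 CPM in WT uneducated libraries (median 85.7), from 30.6 to 70.7 CPM in NKG2A+ libraries (median 38.1) and from 42.7 to 63.0 CPM in WT Ly49C/I+ libraries (median 57.0). All 15 educated libraries were below the uneducated median. The log2 fold change was -1.01 (SE 0.19, adjusted p = 0.000879) in NKG2A+ cells and -0.67 (SE 0.19, adjusted p = 0.0316) in Ly49C/I+ cells. In KO mice, Mef2c was 36.3 to 68.8 CPM in uneducated cells and 22.2, 26.6, 25.8, 18.0 and 45.1 CPM in Ly49C/I+ cells, where only library 8 was inside the uneducated range. The log2 fold change was -0.95 (SE 0.22, adjusted p = 0.0076). The NKG2A+ and KO calls held without any 1 library (adjusted p at most 0.00236 and 0.0271). The WT Ly49C/I+ call was lost without any 1 of uneducated libraries 1 to 4 or Ly49C/I+ libraries 2, 4, 5, 7 and 8 (adjusted p up to 0.0715).

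Tcf7 and Prdm1 gave less clear results. Tcf7 was 55.6 to 254 CPM in WT uneducated libraries (median 169.8), 154 to 337 CPM in NKG2A+ libraries (median 249) and 187 to 296 CPM in WT Ly49C/I+ libraries (median 258). The log2 fold changes of 0.62 (SE 0.21, adjusted p = 0.0514) and 0.61 (SE 0.24, adjusted p = 0.114) did not pass, though 14 of the 15 educated libraries were above the uneducated median. The NKG2A+ value passed without uneducated library 5, 6 or 9 or NKG2A+ library 3 (adjusted p from 0.02), without the libraries with fewest genes (0.0383), by the likelihood ratio test (0.0272), with GC and length offsets (0.0433) and with all groups in 1 fit (0.0188), and the WT Ly49C/I+ value with all groups in 1 fit (0.0353). Both values passed with same-numbered libraries paired in the fit (edgeR adjusted p = 0.00737 in NKG2A+ and 0.00474 in WT Ly49C/I+ cells). In KO mice, the difference was 0.31 (SE 0.17, adjusted p = 0.239). Prdm1 had group medians between 39.1 and 62.3 CPM and log2 fold changes of 0.09, 0.01 and 0.37 in the 3 comparisons (adjusted p from 0.169 to 0.996).

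Of the early factors, Gata3 was higher in NKG2A+ cells, at 46.1 to 80.4 CPM (median 53.2) against 32.9 to 53.3 CPM (median 44.4) in uneducated cells. The log2 fold change was 0.37 (SE 0.12, adjusted p = 0.0416), a call that was lost without any 1 of uneducated libraries 1 to 4, 7 and 9 or NKG2A+ libraries 2, 5, 6, 7 and 9 (adjusted p up to 0.0885), with no filter on low counts (0.0768), with GC and length offsets (0.105) and with all groups in 1 fit (0.0985). Of the T cell markers, Cd3d (4.24 to 14.3 CPM in uneducated and 14.3 to 48.1 CPM in NKG2A+ libraries) and Cd3e (1.13 to 8.27 and 6.33 to 33.4 CPM) had higher ranges beside Gata3, while Cd4 and Cd8a had medians of 0 in both groups. Cd3g, the most abundant of these markers, was not higher (31.5 to 135.6 CPM, median 83.5, and 42.3 to 105 CPM, median 76.3). Their part in the result was not tested. In Ly49C/I+ cells Gata3 did not pass, with log2 fold changes of -0.08 (SE 0.19) in WT and 0.26 (SE 0.18) in KO mice. Id2, Nfil3 and Tox did not pass in any of the 3 comparisons. Id2 was lowest in WT Ly49C/I+ libraries, at 731 to 995 CPM against 894 to 1386 CPM in uneducated libraries, with a log2 fold change of -0.26 (SE 0.10, adjusted p = 0.103). The log2 fold changes of Nfil3 were -0.04, 0.09 and 0.16, and those of Tox 0.16, 0.39 and 0.37. Without WT uneducated library 5, Tox gave 0.42 in NKG2A+ cells (adjusted p = 0.136) and 0.66 in WT Ly49C/I+ cells (adjusted p = 0.0584). WT uneducated library 5, among those with the fewest genes detected, had the highest level of its group for Eomes, Nfil3, Id2, Gata3, Tox and Mef2c and the lowest for Zeb2. The title of this library numbers it 5, but its description repeats the name of library 4, and both labels put it in the same group. Without it, Zeb2 in NKG2A+ cells was 1.18 (adjusted p = 0.00169), and the Eomes to Tbx21 ratio fell by 0.59 in NKG2A+ cells (exact permutation adjusted p = 0.00271) and by 0.64 in WT Ly49C/I+ cells (exact permutation adjusted p = 0.00466).

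NKG2A+ and Ly49C/I+ cells of WT mice were compared directly. None of the 10 factors passed edgeR's test, where 2.73% of 9308 genes did. At an unadjusted p under 0.05 there were 2 of the 10, where 1709 of the 9308 genes were. These were Id2 (log2 fold change 0.18, SE 0.07, adjusted p = 0.152) and Gata3 (0.45, SE 0.19, adjusted p = 0.206), both with all 9 NKG2A+ libraries above the Ly49C/I+ median. DESeq2 called 0 of the 10. Mef2c was 0.35 lower in NKG2A+ cells (log2 fold change -0.35, SE 0.18, adjusted p = 0.294).

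**Figure D3:**
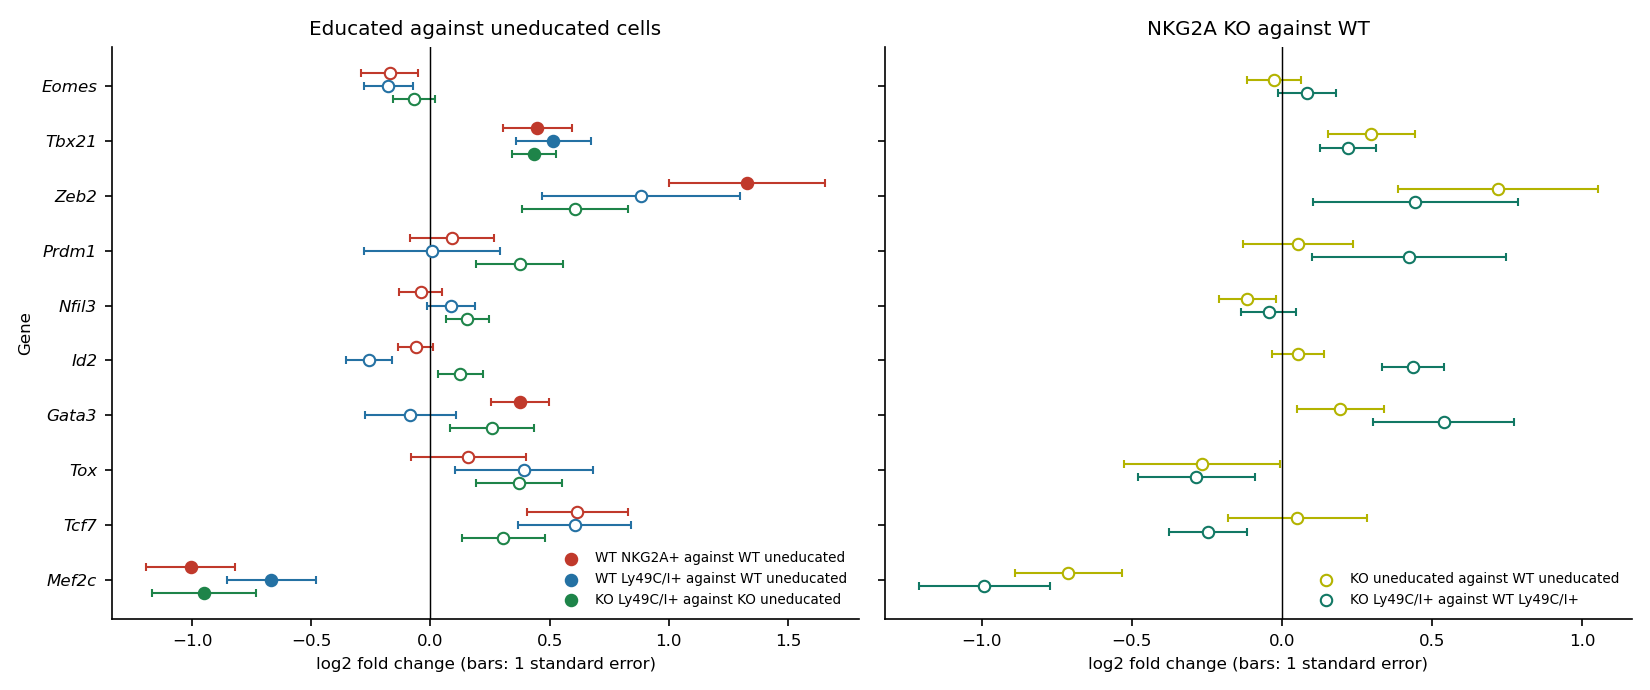
Log2 fold change of each gene with bars of 1 standard error. Left, educated against uneducated cells in 3 comparisons. Right, KO against WT cells of the same sort. Filled points passed an adjusted p of 0.05. Tbx21 lies right of 0 and Mef2c left of 0 with filled points in all 3 comparisons on the left, and no point on the right is filled.

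The genotype was then compared within each sort, although the NKG2A- sorts of KO mice may hold cells that WT sorting removed. In uneducated cells, 0 of 9288 genes passed edgeR's test (0%), with 619 at an unadjusted p under 0.05 and 1 called by DESeq2. Mef2c was 36.3 to 68.8 CPM in KO and 49.5 to 129 CPM in WT libraries, with all 8 KO libraries below the WT median (log2 fold change -0.71, SE 0.18, unadjusted p = 0.000638, adjusted p = 0.507). Zeb2 was 0.72 higher on the log2 scale (SE 0.33, adjusted p = 0.735), with all 8 KO libraries above the WT median. Tbx21 was 0.30 higher (SE 0.14, adjusted p = 0.75), also with all 8 KO libraries above the WT median. In Ly49C/I+ cells, 0 of 9344 genes passed (0%), with 1001 at an unadjusted p under 0.05 and 118 called by DESeq2, among them Id2 and Mef2c of the 10 factors. Of the 10 factors, 4 had an unadjusted p under 0.05. Beside Id2 and Mef2c these were Tbx21 (log2 fold change 0.22, SE 0.09, adjusted p = 0.444) and Gata3 (0.54, SE 0.23, adjusted p = 0.444). Mef2c was lower in KO than in WT Ly49C/I+ cells, with 4 of 5 KO libraries under every WT library (log2 fold change -0.99, SE 0.22, adjusted p = 0.144), and passed without KO library 8 (adjusted p = 0.0436). Id2 was 909 to 1309 CPM in KO and 731 to 995 CPM in WT Ly49C/I+ libraries, and 4 of 5 KO libraries were above every WT library (log2 fold change 0.44, SE 0.10, adjusted p = 0.172). When the changes from uneducated to Ly49C/I+ cells were compared across genotypes, 0 of 9322 genes passed (0%), with 414 at an unadjusted p under 0.05 and 1 called by DESeq2. Of the 10 factors, Id2 alone had an unadjusted p under 0.05 there (difference 0.37, SE 0.14, adjusted p = 0.998).

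The libraries of a group differed among themselves, and some of the 10 genes varied together. With group means removed from log2(CPM + 1), 6 of 45 pairs of genes passed an adjusted permutation p of 0.05 over the 37 libraries, all with a positive r. The share of pairs of other genes that would pass was not computed, so the 6 are not set apart from genes at large. The genes share the scaling of each library, and the permutations take the libraries of a group as independent. Tbx21 and Tcf7 had the highest (r = 0.65, permutation p = 0.00022, and rho = 0.51, permutation p = 0.00359), and r was 0.52 without the 2 libraries farthest in Tbx21. Within the 4 groups of 6 or more libraries, their r was 0.82, 0.50, 0.19 and 0.65 in WT uneducated, NKG2A+, WT Ly49C/I+ and KO uneducated cells. Eomes and Tbx21 also rose and fell together within groups (r = 0.49, permutation p = 0.00406, and rho = 0.60, permutation p = 0.00024), with r = 0.65 without the 2 farthest libraries and r = 0.27, 0.68, 0.94 and 0.66 within the 4 groups. Across all 37 libraries without removal of group means, the r of this pair was 0.16.

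The other pairs that passed were among Eomes, Nfil3, Tcf7, Tox, Id2 and Gata3. Nfil3 and Tcf7 had r = 0.55 (permutation p = 0.00142, rho = 0.45, permutation p = 0.00961), and r = 0.49 without the farthest libraries. Id2 and Gata3 had r = 0.55 (permutation p = 0.00116, rho = 0.63, permutation p = 0.0003), and r = 0.52 without the farthest. Eomes and Nfil3 had r = 0.52 (permutation p = 0.00154, rho = 0.49, permutation p = 0.00378), which was 0.43 without the farthest and 0.31 without the 4 libraries with fewest genes. Tox and Tcf7 had r = 0.59 (permutation p = 0.00319, rho = 0.35, permutation p = 0.0495), but the r was -0.49 within NKG2A+ cells. By rho, Nfil3 with Tcf7 and Tox with Tcf7 did not pass after adjustment (adjusted permutation p = 0.0618 and 0.186). Mef2c had no r above 0.109 with any other of the genes, and its r was -0.35 with Tbx21 (permutation p = 0.0572) and -0.39 with Zeb2 (permutation p = 0.0289, adjusted p = 0.117).

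**Figure D4:**
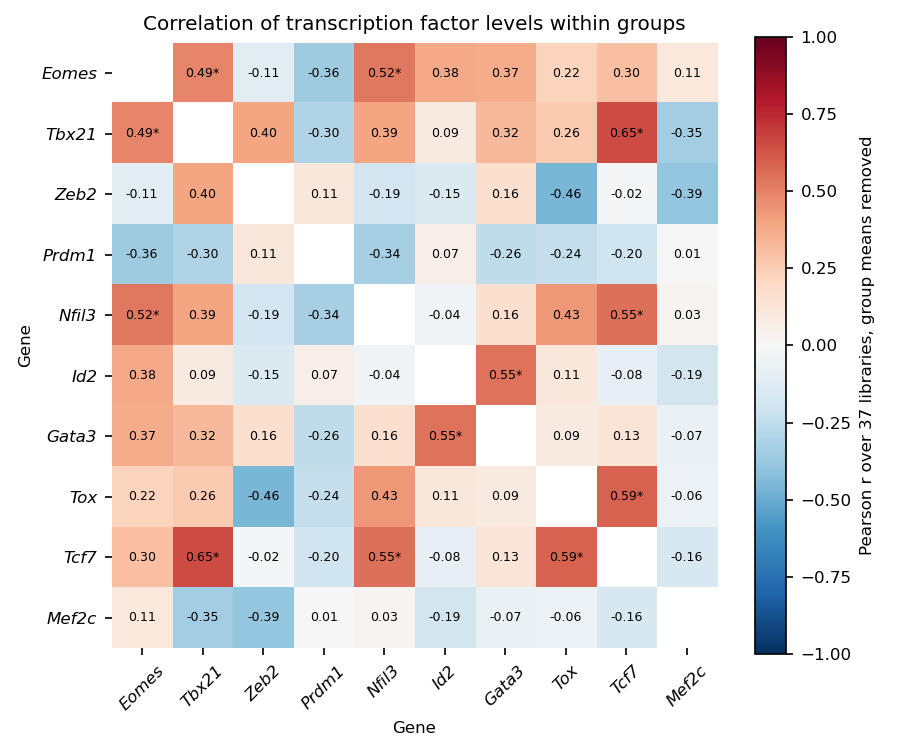
Pearson r between each pair of genes over 37 libraries after group means were removed, in colour from -1 to 1, with the value in each cell. Asterisks mark the 6 pairs with an adjusted permutation p under 0.05, all of them positive and the highest at 0.65 for Tbx21 and Tcf7.

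Among 9286 other genes, those whose log2(CPM + 1) was most like each factor over the 37 libraries were listed as a description. For Tbx21 these were Rasal3 (r = 0.95) and H2-D1 (r = 0.94), with r = 0.91 and 0.87 once group means were removed. Zeb2 was most like Anxa6 (r = 0.87) and Itgal (r = 0.87), Tcf7 most like Spsb1 (r = 0.85) and Cd27 (r = 0.83), and Mef2c most like Park7 (r = 0.84, and 0.56 without group means) and Cmtm7 (r = 0.82). The nearest genes of Eomes were Arpc1b (r = 0.78) and Tsc22d4 (r = 0.76), and those of Tox were Ccnl1 (r = 0.75) and Med10 (r = 0.74). Nfil3 was nearest to Nr4a2 (r = 0.72), Id2 to Ppp1r18 (r = 0.77), Gata3 to Sh2d3c (r = 0.70) and Ifng (r = 0.70), and Prdm1 to Cx3cr1 (r = 0.64). These r values share the libraries and their scaling.

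Genes known to need T-bet or Eomes were read from the same fits. Over all genes tested, 7.47% were called higher and 7.56% lower in NKG2A+ cells, 4.25% and 5.05% in WT Ly49C/I+ cells, 7.34% and 8.99% in KO Ly49C/I+ cells, and 1.31% and 1.42% between NKG2A+ and WT Ly49C/I+ cells, and the counts of this and the following lists stand beside these shares. In NKG2A+ cells, 8 of 11 were higher and 2 lower, with a median log2 fold change of 0.87 (0.01 over all genes tested). Il18r1, a subunit of the interleukin-18 receptor, rose from 9.12 ± 3.51 to 28.7 ± 7.82 CPM (SD, n = 9 and 9, log2 fold change 1.65), and S1pr5, the receptor that NK cells use to leave tissues, from 30.2 ± 14.9 to 85.6 ± 41.0 CPM (1.503). Ccl5, a chemokine, had a log2 fold change of 1.148. The 2 that fell encode the cytotoxic proteins granzyme B (Gzmb, -0.68) and perforin (Prf1, -0.69). In WT Ly49C/I+ cells, 0 of 11 passed as higher and the same 2 were lower (Gzmb -0.58, Prf1 -0.71), with a median of 0.36. In KO Ly49C/I+ cells 5 were higher, led by S1pr5 (1.03), the integrin gene Itga2 (0.93) and Fasl (0.71), with a median of 0.59, and Gzmb (-0.33) and Prf1 (-0.45) were lower. The counts of 8 and 2 in NKG2A+ cells were the same in all 29 other settings, whereas the 0 higher in WT Ly49C/I+ cells became up to 4 and the 2 lower in KO Ly49C/I+ cells ranged from 0 to 2, moving in 17 of 23 settings.

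The lists of maturation genes moved in parts. Of 9 genes of mature CD11b+ CD27- NK cells, 6 were higher in NKG2A+ cells, led by S1pr5, Ly6c2 (log2 fold change 1.38) and the chemokine receptor gene Cx3cr1 (1.27), while Klrg1 (-0.73), Gzmb and Prf1 were lower. Of 12 genes of immature CD27+ CD11b- cells, 6 were higher and 0 lower in the same comparison, led by Il7r (2.51), Cxcr4 (1.44) and Emb (1.19), so the list medians were 1.05 for the mature and 0.73 for the immature genes. In WT Ly49C/I+ cells, 1 mature gene was higher (Ly6c2, 0.98) and 3 were lower, and 1 of 10 immature genes was higher (Xcl1, a chemokine, 1.101). In KO Ly49C/I+ cells, 5 mature genes were higher and 2 lower (Gzmb and Prf1), and 2 of 10 immature genes were higher (Xcl1 0.91 and Ltb 0.81) and 1 lower (Thy1, -0.45). S1pr5, Gzmb and Prf1 stand in 2 of the lists. Counts of 1 of about 10 genes are near what those shares give, and counts of 2 lie somewhat above them. In other settings the higher immature genes numbered 1 to 7 in WT and 1 to 4 in KO Ly49C/I+ cells.

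Other transcription factors of NK cells and innate lymphoid cells were followed as a list of 33. In NKG2A+ cells 8 of 26 tested were higher (7.47% of all genes) and 0 lower, led by Rora (6.95 ± 3.23 to 39.0 ± 10.1 CPM, SD, n = 9 and 9, log2 fold change 2.49), Maf (1.73) and Ahr (1.66). In WT Ly49C/I+ cells, where 4.25% of all genes were higher and 5.05% lower, 3 of 25 were higher (Irf1 0.68, Ets1 0.45, Irf8 0.28) and Lef1, which encodes a partner of TCF1 in binding DNA, was lower (-0.97). In KO Ly49C/I+ cells 6 of 25 were higher, led by Foxo3 (0.73), Irf1 (0.56) and Hhex (0.39), and Rora (-1.23), Myb (-1.08) and Lef1 (-0.92) were lower. The 6 became 1 to 7 and the 3 became 2 to 4 in other settings. Between NKG2A+ and WT Ly49C/I+ cells, 4 of 26 were higher, led by Rora (2.51), Ikzf2 (1.88) and Lef1 (0.98). The list medians in these 4 comparisons were 0.30, 0.15, 0.21 and 0.14, against at most 0.0225 over all genes tested. Of 11 genes of ILC1 and tissue residency, 4 were higher in NKG2A+ than in uneducated cells, led by Cd200r1 (3.29), Cxcr6 (2.86) and Tmem176a (2.64), and Itga1 was lower (-0.36). In WT Ly49C/I+ cells Rgs1 (0.38) was higher, and in KO Ly49C/I+ cells 4 of 10 were higher, led by Tnfsf10 (0.72), Cd69 (0.71) and Rgs1 (0.54), and Gpr183 (-0.58) was lower. Cd3d and Cd3e, given above with Gata3, also had higher ranges in the NKG2A+ group, in which Rora and Il7r rose, whereas Cd3g did not. The part of these markers was not tested. Between genotypes edgeR called 0% of all genes and so none of the lists, and in Ly49C/I+ cells other settings called up to 3 genes that need T-bet or Eomes, 2 mature genes and 1 ILC1 gene as higher.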

How the data were processed

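RNA-seq libraries of sorted uNK cells were analysed from the deposited tables of raw read counts per gene, 1 per library. Per the labels and the study's methods, RNA was amplified with SMART-Seq v4 and made into Nextera XT libraries, and the authors checked reads with FastQC 0.11.4, trimmed them with Trim Galore 0.5.0 and aligned them to GRCm38 with STAR 2.7.1. The counting tool and strand setting were not given in the sources used here. The 5 summary lines of each table, among them reads on no gene (2.69% to 6.83% of everything in a table) and reads placed more than once (11.3% to 13.8%), entered neither library sizes nor tests. Groups and library numbers come from the labels.

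A gene was tested if it reached 5 CPM in a share of 0.5 or more of the libraries in a comparison. The test was the quasi-likelihood F test of edgeR 4.0.16 (R 4.3.3) with TMM factors and Benjamini-Hochberg adjustment, on the groups of that comparison only. DESeq2 1.42.0, other normalisations, filters, fits and left-out libraries were alternatives. The balance was tested with exact two-sided permutation tests. Correlations used 100000 permutations within groups. Scripts were tested on simulated data. The 10 genes, the pathway lists and the tests were chosen with earlier results of these data known. All 10 genes were named, with at most 3 list genes per direction and comparison and the 2 genes most alike to each. One sort marker and the marker list that holds it are not reported here.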

Additional observations from a re-analysis of the deposited data

Results flagged for a closer look

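In 6 of 55 groups of values tested, 1 library stood apart from the others of its group by Dixon's criterion, where chance gives about 1 in 20. WT uneducated library 5, among the libraries with fewest genes detected, had the highest Eomes (563 CPM, next 431.7) and Id2 (1386 CPM, next 1111) of its group. KO Ly49C/I+ library 5, also with few genes detected, had the highest Eomes (479.8 CPM, next 382.5). KO Ly49C/I+ library 8 had the lowest Id2 (909.1 CPM, next 1237). WT NKG2A+ library 1 had the highest Prdm1 (80.73 CPM, next 54.26), and KO uneducated library 4 the highest Gata3 (78.27 CPM, next 53.29).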

How the results depend on the processing

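Of 1275 alternative values for 52 results, 1131 were counted as unchanged. Fold changes and balances among them kept their direction and side of the threshold. Counts of genes called among them stayed near the main count, but the genes called could differ. Zeb2 and Mef2c in NKG2A+ cells, Tbx21 and Mef2c in KO Ly49C/I+ cells and the balance in NKG2A+ cells passed in every alternative run. The cause of the changes below was not tested. Of the 10 genes, 2 were called in NKG2A+ cells with no filter on low counts (2 to 5 on leaving out 1 library). In WT Ly49C/I+ cells 0 were called with no filter, 1 at 1 CPM, with GC and length offsets or without the libraries with fewest genes, and 4 with all groups in 1 fit (0 to 2 on leaving out 1 library). In KO against WT Ly49C/I+ cells 2 were called by DESeq2 and by the likelihood ratio test and 1 with all groups in 1 fit (0 to 1 on leaving out 1 library). The balance of KO against WT uneducated cells was -0.53 with medians (adjusted p = 0.0228) and -0.42 to -0.27 on leaving out 1 library, and that of KO against WT Ly49C/I+ cells was -0.20 without the libraries with fewest genes (adjusted p = 0.0476) and -0.20 to -0.11 on leaving out 1. Signs turned only for values that did not pass. Nfil3 in NKG2A+ cells was 0.01173 with GC and length offsets, and Id2 was 0.004635 with 8 libraries against 8. Prdm1 in WT Ly49C/I+ cells was -0.004914 with no filter, -0.007054 at 1 CPM and -0.22 without the libraries with fewest genes (-0.20 to 0.19 on leaving out 1 library), and -0.03143 to 0.1571 in NKG2A+ cells. Gata3 in WT Ly49C/I+ cells was 0.08541 without the libraries with fewest genes and -0.2396 to 0.03618 on leaving out 1. Over all genes, calls in WT Ly49C/I+ cells went from 864 to 451 with no filter and 1528 with all groups. Leaving out 1 library gave 461 (without Ly49C/I+ library 7) to 575 for that comparison without Ly49C/I+ library 5 or 7 or uneducated library 1, 3 or 4. Those between NKG2A+ and Ly49C/I+ cells went from 254 to 558 with DESeq2, 442 with the likelihood ratio test, 104 with no filter and 125 with GC and length offsets, and to 147 to 168 without NKG2A+ library 2 or 8 or Ly49C/I+ library 2, 5 or 7. Those in KO Ly49C/I+ cells went from 1519 to 889 with no filter and 967 without Ly49C/I+ library 4. Against 0 calls, KO and WT uneducated cells had 1 with DESeq2 or the likelihood ratio test, KO and WT Ly49C/I+ cells had 118, 62 and, with all groups, 18 (15 without WT library 1 and 2 without KO library 8), and the difference of effects had 1 with DESeq2.

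Libraries of different groups share numbers in the labels. Same-numbered libraries deviated together (r over 0.1) in 4 of 9, 4 of 6, 2 of 6 and 1 of 5 pairs of the 4 comparisons within a genotype. In 6 of 9, 5 of 6, 6 of 6 and 3 of 5 pairs, the first group's library was closest to its own number in the second group. The numbers thus carry some shared variation, but the labels do not say what they mark. The main tests left them out, and a fit with the numbers as a replicate block was an alternative. With the replicate block, 4 of the 10 genes were called in WT Ly49C/I+ cells, also with GC and length offsets: Tbx21, Mef2c, Zeb2 (log2 fold change 1.381, edgeR adjusted p = 0.015) and Tcf7 (0.7194, edgeR adjusted p = 0.00474). In NKG2A+ cells Tcf7 (0.7137, edgeR adjusted p = 0.00737) took the place of Gata3 (edgeR adjusted p = 0.0532), as it did with offsets or with all groups in 1 fit. Prdm1 in WT Ly49C/I+ cells was -0.13 (-0.14 with offsets). With block and offsets, Nfil3 in NKG2A+ cells was 0.01264, Id2 between NKG2A+ and Ly49C/I+ cells was -0.02956, and 125 genes were called in that comparison. Calls over all genes in KO Ly49C/I+ cells were 748 with the block and 556 with offsets too. The balance with the block was -0.83 in WT Ly49C/I+ cells (lower in 6 of 6 pairs, exact sign-flip permutation p = 0.0312, the smallest that 6 pairs can give, adjusted p = 0.0544) and -0.45 in KO Ly49C/I+ cells (lower in 5 of 5 pairs, exact permutation adjusted p = 0.0805), where 5 pairs cannot give a p below 0.0625.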
